A study of Danio rerio with 2 samples.

Results

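The 690 peaks of RNA polymerase II (Pol II) on chromosome 15 are described here, out of 20243 found in wild-type zebrafish of the Tubingen strain. The embryos were untreated and collected at 4 hpf (hours post-fertilization), then pooled, dechorionated and deyolked. The series held 2 samples, a Pol II immunoprecipitate and its input chromatin. Only the immunoprecipitate had a file used here, 1 list of peaks that the authors called on 2 pooled biological replicates against 1 input, so no value below has a replicate check. The members were chosen by position, as every peak listed on chromosome 15 of the zebrafish build Zv10 (GRCz10). The chromosome itself was proposed from this list, so its rank among chromosomes is also a description. Inside them, 69 peaks whose midpoints lay in 2 windows, 20 from 7.2 to 7.3 Mb and 49 from 9.6 to 10 Mb, were set apart from the other 621. These windows were selected on the scores of this same list, because their peaks scored high and nearly alike, so scores and spacing within them are given as a description with no test. The 16028 peaks of the 23 other assembled chromosomes except chromosome 4 served as background.

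Pol II transcribes protein-coding genes and many non-coding RNAs. The antibody used, 8WG16, recognizes the repeated tail of its largest subunit. At 4 hpf the zebrafish embryo has just passed from maternal RNA stores to transcription of its own genome, and Pol II signal marks promoters, where the enzyme loads and can pause, and the bodies of genes it is reading. A broad peak is therefore usual over an active gene, and a narrow one over a start site or a short transcript. Chromatin immunoprecipitation gives occupancy of the enzyme and not RNA output. Where a stretch of sequence is present in several near-identical copies, a short read fits more than 1 of them, and the aligner had to place such a read at random, so the signal at 1 copy can come from another. Peaks are named by position because no gene annotation or sequence of this build was used here, and no gene can be assigned to them.

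Each peak carried a width, an integer score and a summit, the position of its highest signal. The score was read as 10 times the largest −log10 q in the peak, which measures how far signal stood above background and depends on depth. It is not a fold enrichment. Under this reading peak bounds and score follow from the same q values. How many reads lay behind a peak could not be read from the list. Intervals below are exact binomial 95% intervals (Clopper-Pearson for shares, order statistics for medians). They cover counting error only and are too narrow for peaks that lie together in a cluster.

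As a whole, peaks took up about as much of chromosome 15 as of the others. Its peaks covered 2.57% of its 47.6 Mb, against 2.52% of the span of the 23 others. It held 14.5 peaks per Mb, the 6th highest of 24 chromosomes, against a range of 8.80 to 20.7 and a median of 12.9 on the others. The ratio of its peaks to those given by its length was 1.09 (95% interval 1.01 to 1.18), and 0.998 (0.922 to 1.08) without the 2 windows. Its median peak was 920 bp wide (830 to 1000), against 860 bp (840 to 880) on the others. Its median score was 84 (74 to 93), against 76 (74 to 78). Without the windows both medians lay below those of the other chromosomes, at 810 bp (750 to 900) and 72 (67 to 80). The window peaks were chosen for high scores, and the other chromosomes kept all their peaks. These lower values therefore follow at least in part from the removal.

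High scores set chromosome 15 apart only through its 2 windows. Of its peaks, 76 were among the 1000 highest scoring of the list, the size of the top list the study used, whose lowest score was 974. That is 11.0% of its peaks (95% interval 8.78 to 13.6), against a background of 4.77% (4.45 to 5.11) on the 23 other chromosomes, where single chromosomes ranged from 2.34% to 7.93%. It was the highest share of the 24. The 2 windows, 1.05% of the chromosome's length, held 56 of the 76, or 73.7%. Of the window peaks 81.2% (69.9 to 89.6) were high scoring, against 3.22% (1.98 to 4.93) of the 621 others. The windows were selected on these scores, so this contrast is a description that follows at least in part from that choice. With the windows left out, chromosome 15 stood 21st of 24. The other chromosomes kept all their peaks, high-scoring clusters included. The fall in rank therefore follows at least in part from this removal on 1 side only.

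**Figure D1:**
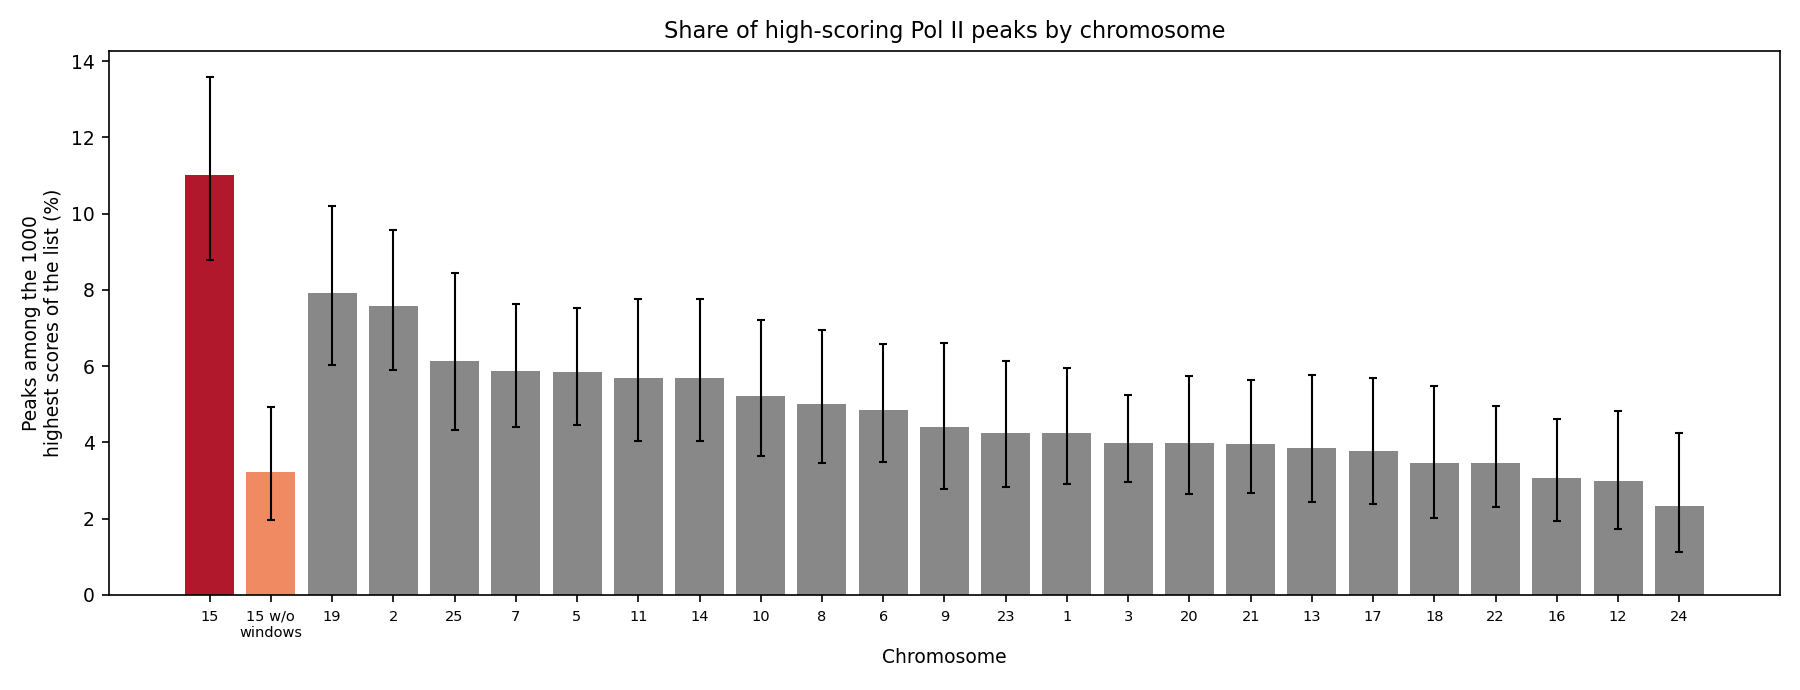
Share of peaks among the 1000 highest scores of the list, in percent, for chromosome 15, for chromosome 15 without (w/o) its 2 windows, and for the 23 other assembled chromosomes except 4, ordered by share. Bars are shares and lines exact binomial 95% intervals. Chromosome 15 stands at 11.0% with the windows and at 3.22% without them. The other chromosomes keep all their peaks, so the lower bar follows at least in part from the removal.

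The excess depended on how long the top list was. Among the 500 highest scores, chromosome 15 had 0.870% of its peaks (0.320 to 1.88), against 2.50% on the other chromosomes, and 0 of the 69 window peaks were there, against 0.966% of the other peaks of chromosome 15. Among the 2000 highest, 15.7% of the chromosome's peaks (13.0 to 18.6) were present, against 9.43%, and 94.2% of the window peaks (85.8 to 98.4), against 6.92% of the other peaks of the chromosome. When each stitched cluster was counted once, by its highest peak, chromosome 15 had 9.46% (5.95 to 14.1) high-scoring clusters, below the 10.9% of the other chromosomes. A stitched cluster here is a group of peaks with spaces of 10 kb or less between them, and a lone peak counts as 1.

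The 69 window peaks formed 3 clusters of 8 or more peaks, a pair and a single peak. The first cluster (7200221 to 7284010) held 20 peaks and filled the first window. In the second window a cluster of 15 peaks (9659401 to 9723740) was followed by a pair (9742391 to 9747590), a cluster of 31 peaks (9808711 to 9938960) and 1 peak at 9953251 to 9955220. The 3 clusters were 83.8, 64.3 and 130 kb long, and peaks covered 39.5%, 39.2% and 41.6% of them. Their neighbours outside scored lower, which follows at least in part from the choice of the windows by score. The last peak before the first window lay at 7112771 to 7114230 and scored 209, and the first after it, at 7302001 to 7303390, scored 187. The second window was preceded by a peak at 8791471 to 8792160 with a score of 53 and followed by one at 10075351 to 10075700 with a score of 107. The peaks just inside the bounds scored 890 and 256 in the first window and 1359 and 1216 in the second.

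Scores in the windows were high and even. They ran from 64 to 1633 with a median of 1132 (95% interval 1087 to 1179), against 21 to 5042 with a median of 72 on the rest of the chromosome. The evenness was expressed as the quartile ratio, the upper quartile divided by the lower, which is 1 where all values are alike. It was 1.15 over the window peaks, with quartiles of 1059 and 1219, against 3.28 over the other 621 peaks, with quartiles of 46 and 151. Of the 69 peaks, 62 scored between 800 and 1400, or 89.9%, against 1.93% of the other peaks of chromosome 15 and 2.68% of those of the other chromosomes. Since the windows were chosen for high and even scores, such a contrast is in part built in. Only 5 of the 69 scored under 700, between 64 and 677. The 13 window peaks that missed the high-scoring list reached up to 952, just under its lowest score.

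By cluster, the 3 window arrays led the list in evenness of scores or stood near its top. Clusters of 8 or more peaks numbered 464 on chromosome 15 and the 23 others. The cluster from 9659401 ranked 1st of these with a quartile ratio of 1.11, the one from 9808711 ranked 2nd with 1.13 and the one from 7200221 ranked 14th with 1.29. The 20 other such clusters of chromosome 15 ran from 1.34 to 10.4 with a median of 2.14, and the 441 on other chromosomes had a median of 2.19 and a lowest value of 1.18. Clusters can also be fairly even at lower scores, as in the chromosome 15 cluster with a ratio of 1.34, whose median score was 312.5 or less. The median scores of the 3 window clusters were 1144, 1181 and 1055.5, ranked 4th, 3rd and 6th of 464, against 40.5 to 312.5 in the 20 other clusters of the chromosome. On other chromosomes 5 such clusters had a median score of 800 or more.

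Widths were as even as the scores. The window peaks had a median width of 1770 bp (1740 to 1800) with quartiles of 1710 and 1830 bp, against a median of 810 bp with quartiles of 500 and 1640 bp on the rest of chromosome 15. The quartile ratio of width was 1.07, against 3.28. For the 3 clusters it was 1.06, 1.08 and 1.06, in order of position, ranks 2, 4 and 3 of 464, against a median of 3.34 and a lowest value of 1.39 in the other clusters of chromosome 15. No window peak reached 5 kb, while 40 of the 621 other peaks did (6.44%, against 8.72% on the other chromosomes). Across peaks, Spearman's rho between score and width was 0.281 in the windows, against 0.679 on the rest of the chromosome. Widths spanned 370 to 2010 bp in the windows and 300 to 33000 bp on the rest. Among the 63 window peaks of 1500 bp or more rho was 0.166. All are descriptions across peaks of 1 list, and the reason for the difference was not tested.

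Peaks of like width scored lower outside the windows. The 63 window peaks of 1500 bp or more, 1580 to 2010 bp wide, had a median score of 1144, and 54 of 63 were high scoring. On the rest of chromosome 15, 42 peaks fell in the same range of widths, with a median score of 108 and a highest score of 914. Of these, 0 of 42 were high scoring. Because the windows were selected on score, a lower score outside them follows at least in part from that choice, and the contrast is a description.

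**Figure D2:**
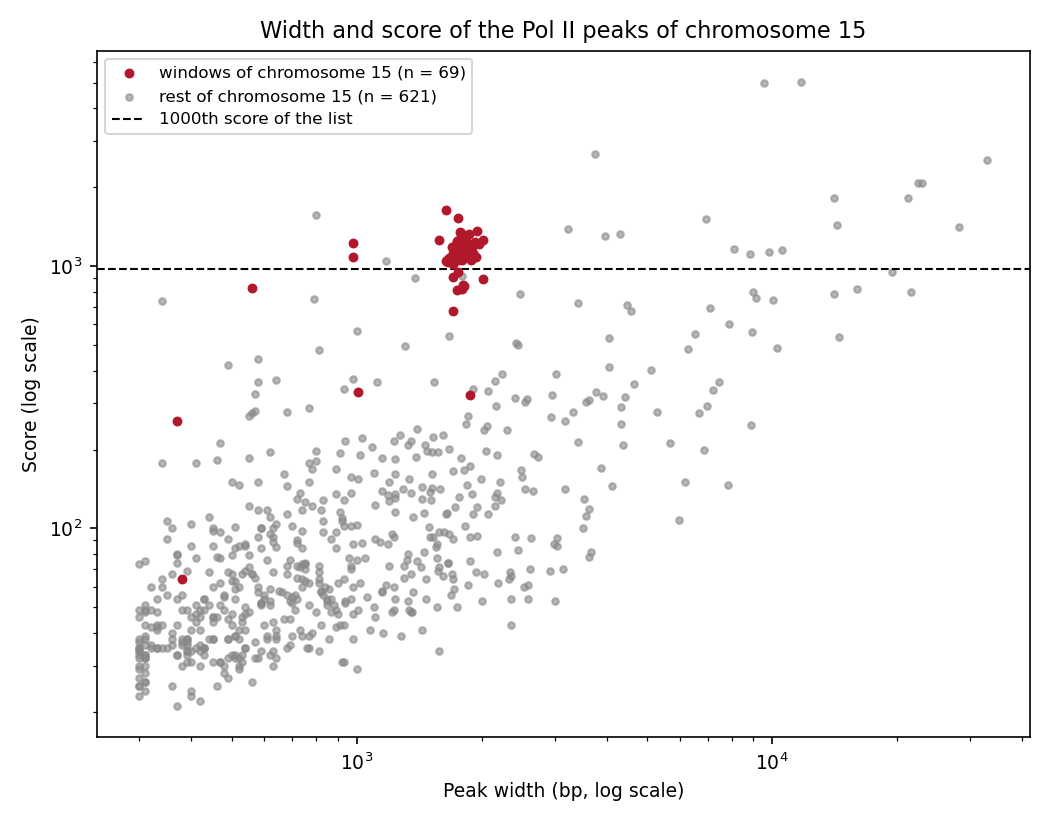
Width in bp and score of every Pol II peak of chromosome 15, both on log scales, with the 69 window peaks in red and the other 621 in grey. The dashed line is the 1000th score of the list, 974. Most window peaks form 1 compact group between 1580 and 2010 bp, above nearly all other peaks of that width.

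The 56 high-scoring peaks in the windows were narrower than the 20 outside. Their median width was 1775 bp, against 9725 bp outside, and 0 of the 56 were 5 kb or wider, against 14 of the 20. They lay in 5 clusters, single peaks and pairs counted, against 16 clusters for the 20. Their scores ran from 1017 to 1633, against 1044 to 5042 outside. The share of 5 kb or wider peaks among high-scoring peaks of the other chromosomes is not given here.

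The first array, in the window from 7.2 Mb, began with 14 peaks in step (7200221 to 7255910). In order along the chromosome they scored 890, 1017, 1062, 913, 952, 1219, 1073, 1198, 845, 1168, 1095, 1049, 1248 and 823. Their summits lay 4050 to 4320 bp apart, with a mean distance of 4232 bp and an SD of 67.7 bp over the distances. The first 13 were 1640 to 2010 bp wide, and the last was 560 bp wide. A distance of 7130 bp followed, 1.69 times the most frequent one. Then came 6 peaks (7262271 to 7284010) with scores of 324, 1217, 812, 1087, 1120 and 256, at a mean distance of 4212 bp. The lowest scores of the array therefore stood at the 2 ends of this shorter stretch.

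The second array (9659401 to 9723740) opened with 2 peaks that scored 1359 and 1223, their summits 4230 bp apart. The second of them was 980 bp wide. After 8590 bp came a lone peak of 1010 bp that scored 332, and 3315 bp further on a stretch of 12 peaks began (9675561 to 9723740). These scored 1039, 1180, 1148, 1144, 1103, 1060, 1170, 1531, 1060, 1179, 1053 and 1072. All 12 were in the high-scoring list, within 1660 to 1890 bp of width, and their mean distance was 4227 bp with an SD of 46.8 bp. The pair that followed after 20450 bp scored 677 and 1088 at a distance of 4125 bp, and its second peak was again 980 bp wide.

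The third array (9808711 to 9938960) was the longest and held 3 stretches. The first had 9 peaks (9808711 to 9844110) with scores of 1202, 817, 1124, 1308, 1324, 1335, 1216, 1181 and 1264 and a mean distance of 4224 bp. After 8720 bp, 2.07 times the most frequent distance, 7 peaks followed (9851251 to 9878380) with scores of 1260, 1074, 1134, 1132, 1253, 1110 and 1067 and a mean distance of 4246 bp. The next step was long, at 5395 bp, and held a small peak of 380 bp that scored 64, the lowest of all 69. A last stretch of 14 peaks (9882151 to 9938960) scored 1121, 1165, 1247, 1059, 1166, 1232, 1268, 1241, 1347, 1257, 1089, 1167, 1633 and 840, with a mean distance of 4235 bp and an SD of 53.2 bp. In this array 28 of 31 peaks were high scoring, and the 3 exceptions were the small peak, the second peak and the last one.

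**Figure D3:**
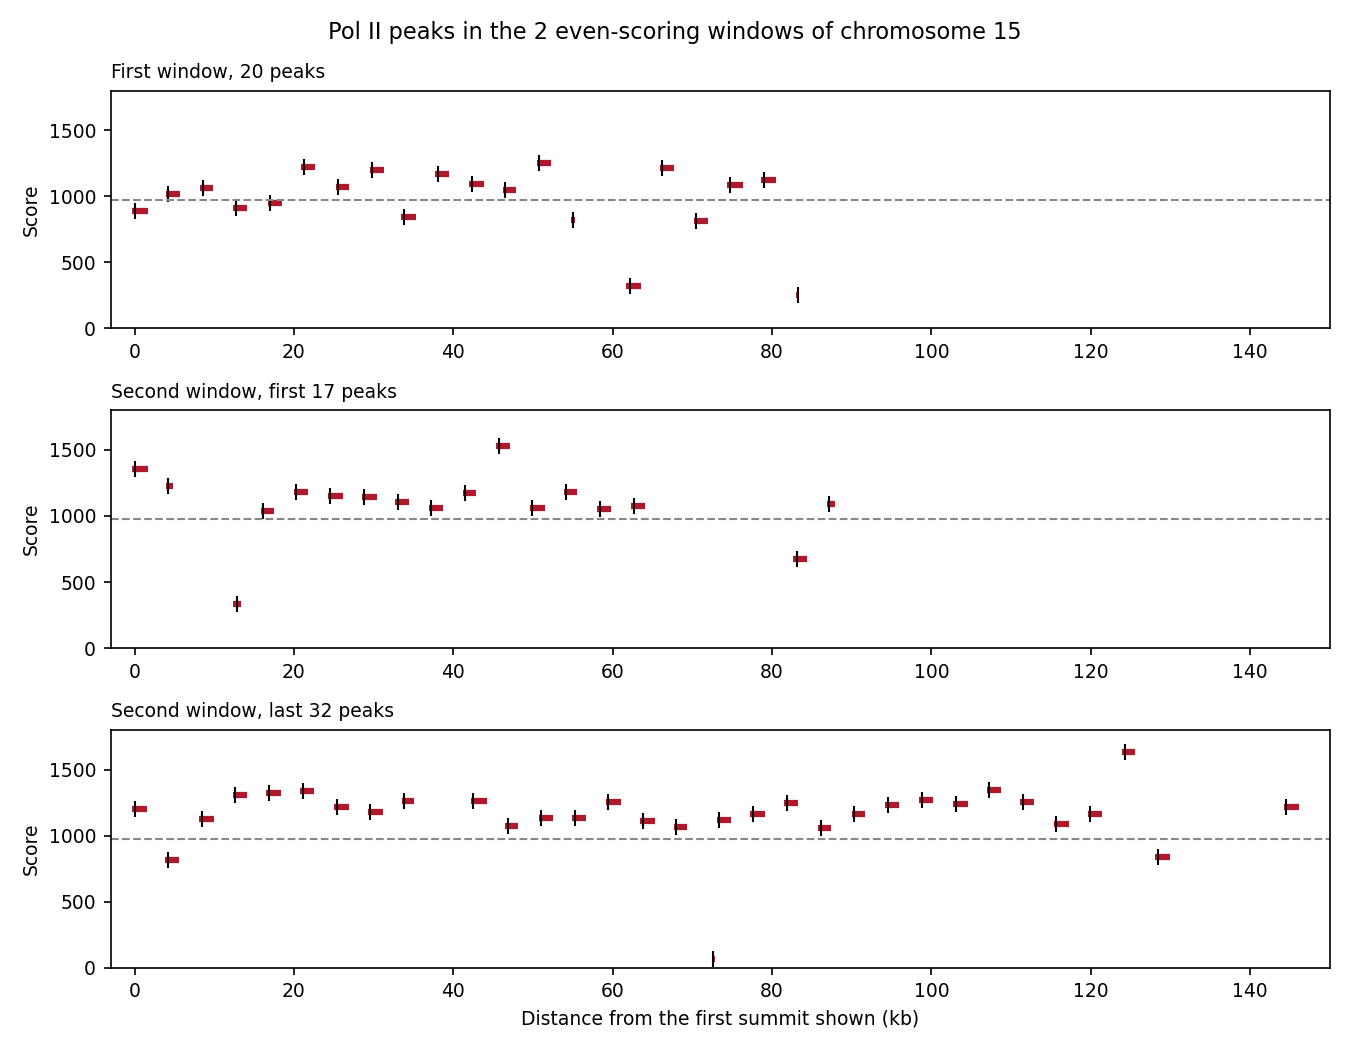
Scores of the 69 window peaks against distance from the first summit shown, in kb, with 20 peaks of the first window, the first 17 of the second window and its last 32. Each red bar spans a peak, each tick is its summit and the dashed line is the 1000th score of the list, 974. Peaks recur at an even step with even scores, and those that scored under 700 or were narrower than 1500 bp stand at the ends of a stretch or within a break between stretches.

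The step between neighbouring peaks was nearly the same in all arrays. Within the 3 clusters, 26 of 63 distances between neighbouring summits lay within 20 bp of 4220 bp, the most frequent value. This distance was sought in these same clusters, since a recurring distance of about this length was already known there. Within 100 bp of 4220 bp, or of 2 or 3 times that length, lay 54 of 63 distances, or 85.7% (95% interval 74.6 to 93.3), all of them single steps. The share was 1.24% (0.403 to 2.86) of 404 distances on the rest of chromosome 15 and 3.24% of 10358 on the other chromosomes, the background. At a tolerance of 50 bp it was 58.7%, against 0.990% on the rest of the chromosome. By window, 16 of 19 distances matched in the first and 39 of 45 in the second, pair included.

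**Figure D4:**
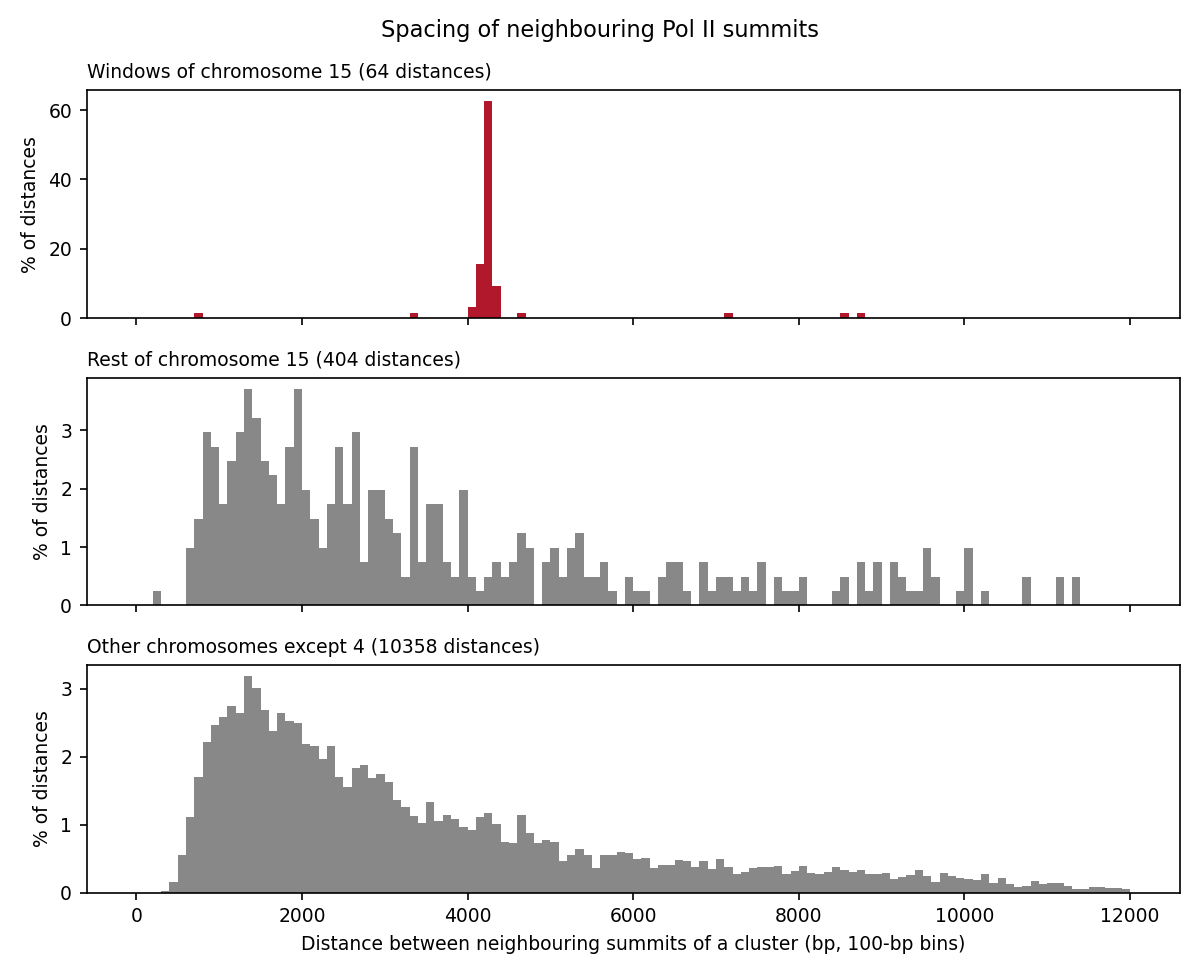
Distances between neighbouring summits of the same stitched cluster, in 100-bp bins up to 12 kb, as percent of all distances of a set, for the windows of chromosome 15 (64 distances), the rest of it (404) and the other chromosomes except 4 (10358). The axis leaves out 0, 16 and 305 longer distances of these sets. Of the 64 window distances, 58 stand between 4040 and 4335 bp and the other 6 are scattered from 740 to 8720 bp, while the distances of the other sets are spread over the whole axis and are most frequent below 2 kb.

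Stretches of summits 3900 to 4600 bp apart took in 66 of the 69 window peaks (95.7%), 62 of them in 6 stretches of 5 or more. These bounds were set after the distances were seen. Of single distances, 90.6% of 64 in the windows lay within them, against 5.20% of 404 on the rest of chromosome 15 and 6.74% of 10358 on the other chromosomes. On the rest of chromosome 15 no such stretch had more than 3 peaks, and on the other chromosomes the longest had 7. The shortest of the 6 window stretches held 6 and 7 peaks. Neighbouring distances in the windows had a median of 4230 bp with quartiles of 4205 and 4280 bp, against a median of 2830 bp with quartiles of 1597.5 and 5205 bp on the rest of the chromosome. Not all breaks between stretches were whole numbers of steps. The breaks, from one summit to the next, came to 1.69, 2.04, 0.786, 4.85, 14.7, 2.07, 1.28 and 3.82 steps of 4220 bp, in order along the chromosome and with the small peak of score 64 skipped.

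The summit sat at the same place in nearly every window peak. The windows were chosen by score and not by this feature, but with earlier results of these data known, so it is also a description. In the 63 window peaks of 1500 bp or more the summit lay 255 to 465 bp from the end with the lower coordinate, with a median of 310 bp (95% interval 300 to 315), and a median of 1475 bp (1430 to 1495) from the other end. All 63 summits were in the first 25% of their peak's length, counted from that end. Of the 42 peaks of matching width on the rest of chromosome 15, 8 had the summit in the first 25% and 21 in the first 50%. Over peaks of any width the summit was in the first 25% in 91.3% of window peaks, against 16.4% on the rest of the chromosome and 17.8% on the other chromosomes. The 63 were thus lopsided in the same direction. Whether the window peaks share their sequence was not tested, and they are not counted as 63 separate cases.

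Of 6 peaks under 1500 bp, 370 to 1010 bp wide, 3 scored 800 or more. The 2 peaks of 980 bp had their summits 335 and 320 bp from that end, and the one of 560 bp had it at 255 bp. These distances lay within those of the full peaks, while the other side was 645, 660 and 305 bp long, shorter than in any full peak. Each of the 3 stood directly before a break in the step. The 3 low-scoring ones, of 1010, 380 and 370 bp, had their summits 515, 225 and 155 bp from the lower end.

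Elsewhere, peaks like those of the windows gathered in 3 places. Likeness was set, after the values were seen, by the ranges of the 61 window peaks of 1500 bp or more that scored 800 or more. These were 1580 to 2010 bp of width, a score of 812 to 1633 and a summit 255 to 375 bp from the lower end. A summit at that distance from the higher end was accepted as well. Since the windows were selected on score, the score range by itself makes such peaks few elsewhere. On the rest of chromosome 15, 0 of 621 peaks met all 3 ranges. On the other chromosomes 24 of 16028 did, a background of 0.15%, and none of the 3001 peaks of chromosome 4 or the 524 on unplaced scaffolds. The summit was toward the lower end in 13 of these 24, as in all 61 window peaks, and toward the higher end in 11. Of the 24, 21 lay in 3 clusters, with 10 on chromosome 25 (18683261 to 18779650), 8 on chromosome 11 (30807951 to 30867690) and 3 on chromosome 8 (30821861 to 30905250). With the score left out, so that only width and the place of the summit counted, 61 of 69 window peaks met the ranges, against 11 of 621 on the rest of chromosome 15 (1.77%) and 253 of 16028 on the other chromosomes, a background of 1.58%. These 61 are the peaks that set the ranges, so their match and their scores of 812 or more follow from that choice. They scored a median of 1148, against 135 and 179 in these other sets. Outside the windows the same 3 clusters were the only ones with 3 or more such peaks on any assembled chromosome except 4, with 13 on chromosome 25, 11 on chromosome 8 and 8 on chromosome 11. On chromosome 8 the 8 peaks added scored below the range.

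The window arrays and those 3 clusters had like steps and widths. In the window clusters 57 of 63 distances lay between 3900 and 4600 bp, against 10 of 20, 8 of 11 and 11 of 16 on chromosomes 25, 11 and 8. The share was 6.74% over all other chromosomes except 4. Among the distances inside these bounds the medians were 4230 bp in the windows, against 4280, 4247.5 and 4240 bp. The bounds themselves keep such medians close, and over all other chromosomes except 4 the median inside them was also 4230 bp. The median width of peaks of 1500 bp or more was 1780 bp in the windows, against 1755, 1720 and 1710 bp on chromosomes 25, 11 and 8. Median scores of these peaks were 1144 in the windows, against 1124, 996 and 720. These clusters were found by their likeness to the windows, so the likeness is a description. The cluster on chromosome 25 was less even, with a quartile ratio of 2.93 over its 21 peaks, while those on chromosomes 11 and 8 had 1.26 and 1.31.

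The side of the summit differed among them. In the windows it was in the first 25% of 63 of 63 peaks of 1500 bp or more, against 11 of 11 on chromosome 11 and 12 of 13 on chromosome 8. On chromosome 25 it was in the last 25% of 15 of 16, at a median of 285 bp from the higher end, which is the mirror image of the window peaks. The clusters on chromosomes 8, 11 and 25 were found through peaks with a summit near either end. A summit in the first or last 25%, and its distance from that end, therefore follow at least in part from that choice. Only the side was left free, and nearly all peaks of a cluster shared it. A pair further along chromosome 11 (30916451 to 30922580), its summits 4220 bp apart, held 1 of the 24 peaks, with the summit toward the higher end.

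**Figure D5:**
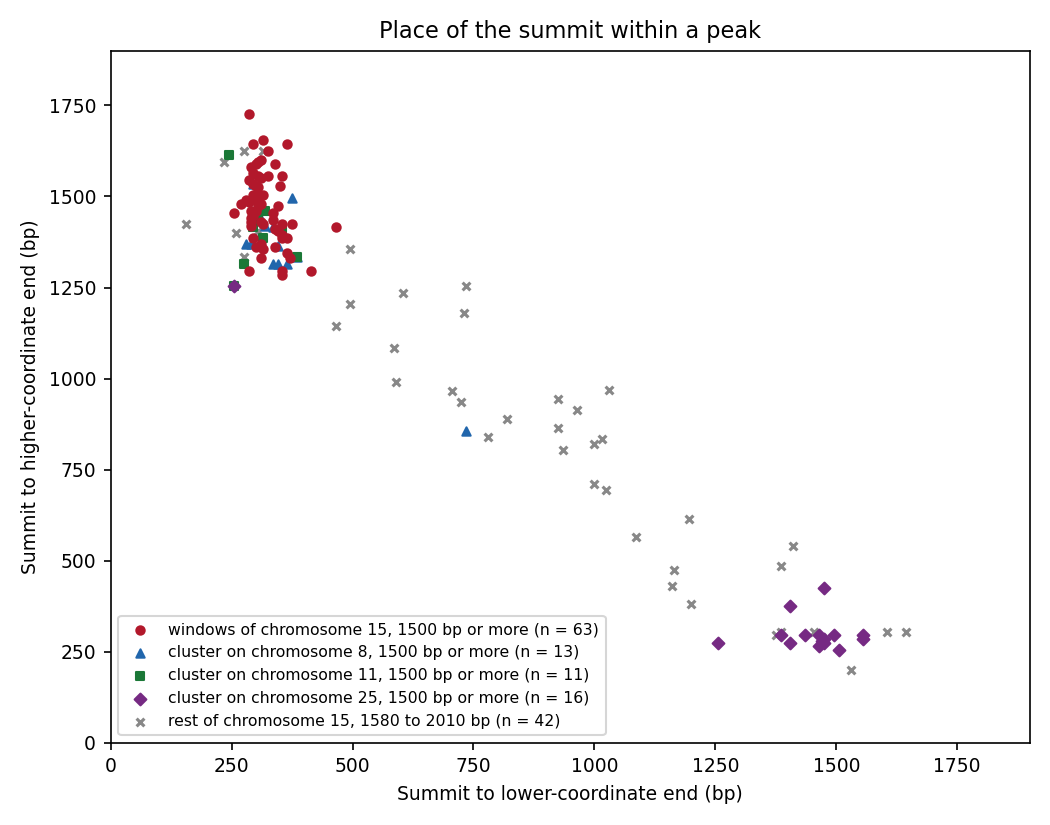
Distance in bp from the summit to the lower-coordinate and to the higher-coordinate end of each peak, for peaks of 1500 bp or more in the windows of chromosome 15 (63) and in the clusters on chromosomes 8 (13), 11 (11) and 25 (16), and for the 42 peaks of 1580 to 2010 bp on the rest of chromosome 15. The window peaks form 1 group near 310 and 1475 bp, joined by those of chromosomes 8 and 11. Nearly all those of chromosome 25 form the mirror group, and the other peaks of chromosome 15 spread along the whole diagonal. The clusters on chromosomes 8, 11 and 25 were found through peaks with a summit near either end, so only its side was left free.

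Outside the windows, the 5 highest scoring Pol II peaks of chromosome 15 were 3.75 to 33.0 kb wide and stood in clusters of 2 to 11 peaks. The 20 high-scoring ones outside ran from 0.80 to 33.0 kb and included lone peaks, such as that of 0.80 kb at 3220091 to 3220890, which scored 1563 and was singled out after its values were seen. The highest of all scored 5042 and ranked 182nd in the whole list (5902831 to 5914550, 11.7 kb). The next, with 5009, was 9.59 kb wide (16131101 to 16140690). Peaks of 2673 (2673741 to 2677490), 2550 (45589601 to 45622600) and 2084 (621391 to 643820) followed, with widths of 3.75, 33.0 and 22.4 kb. The best window peak, with 1633 at 9932921 to 9934560, ranked 9th on the chromosome and 557th in the list.

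Of the 5 broadest peaks, 4 lay in the first 2 Mb or beyond 45 Mb. The widest peak, of 33.0 kb, was the one at 45589601, and beside it stood one of 23.0 kb (45623401 to 45646410) that scored 2072. The second widest, of 28.2 kb (1618691 to 1646860), scored 1410. Those of 22.4 kb at 621391 and of 21.7 kb (35186481 to 35208130) scored 2084 and 794. By covered length the longest cluster was that at 45576331 to 45670060, where 11 peaks covered 74.7 kb, or 79.7% of its length, followed by the third array of the windows with 54.2 kb. The others of the first 5 were at 35184891 to 35236440 (41.4 kb), 1609631 to 1657720 (40.8 kb) and 46555141 to 46602080 (38.1 kb). Peaks covered 41.6% of the third array, against 79.7% to 84.8% of these 4 other clusters.

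Clusters with many peaks were not high scoring as such. By number of peaks the third array led with 31, and the first array shared the next place, with 20, with a cluster at 41718791 to 41778680. The first array had a median score of 1055.5 and a highest score of 1248, against 56.5 and 690 in that cluster. The quartile ratio of score was 1.29 in the first array, against 2.48 in that cluster, which ranked 292nd of 464. In all, chromosome 15 formed 222 stitched clusters, of which 98 were lone peaks. The 41 clusters of 5 or more peaks held 55.5% of its peaks, a share that ranked 4th of 24. On the other chromosomes except 4 it ran from 36.9% to 59.0% with a median of 51.1%. The window arrays were counted in the share of chromosome 15, which is not given without them.

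Peak density varied along chromosome 15, high at both ends and from 15 to 20 Mb and low between 30 and 40 Mb. In 5-Mb bins the first held 23.8 peaks per Mb and the last, from 45 Mb on, 23.4, while those from 30 and 35 Mb held 7.2 and 6.8. The bin from 15 to 20 Mb held 100 peaks, against 119 in the first bin. The first 2 Mb alone had 87 peaks. The bin from 5 to 10 Mb had 22.0 peaks per Mb and 57 of the 76 high-scoring peaks. With the window peaks left out it had 41 peaks, or 8.2 per Mb of the whole bin, and 1 high-scoring peak. The length of the windows was kept in this value, which makes it somewhat low. The 3 longest spaces without a peak were 1.97 Mb (38027531 to 39995180), 1.31 Mb (36072261 to 37378660) and 1.13 Mb (27008651 to 28143290). Apart from its window peaks, the bin from 5 to 10 Mb was thus among the sparser ones. The other bins kept all their dense clusters, so this follows at least in part from the removal.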

How the data were processed

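Pol II was immunoprecipitated from 4 hpf embryos. According to the study's methods, single-end reads were aligned to Zv10 with Novoalign 2.8, which put each read that fitted several places at a randomly drawn one, and peaks were called with a MACS2 wrapper on pooled replicates against the input. Whether duplicate reads were removed is unclear from the stated option. The random placement shares reads among near-identical copies, and its part in the results was not tested. The authors gave every peak a whole-number score, deposited without a stated definition and never under 20. Fields for fold enrichment, p and q held 0 and were not used.

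Peaks were assigned to windows by midpoint, stitched at 10 kb, and summarised with Python 3.11.15, pandas 2.3.3 and SciPy 1.17.1. The end of the last peak stood for a chromosome's length. Scripts were tested on simulated data. Members, windows and lists were chosen with earlier results of these data known. Regions named were the window peaks, the 5 highest scoring and 5 broadest peaks, the 5 longest clusters by covered length, the 3 with most peaks, and the 3 longest spaces. Others, including those on chromosomes 8, 11 and 25, were chosen after their values were seen.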

Additional observations from a re-analysis of the deposited data

How the results depend on the processing

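Of 42 alternatives, 26 stayed within the interval of the main value (or within 1.5 times of a count) and 16 moved outside it. The cause was not tested except where fewer peaks enter by construction. Some outcomes were fixed, since chromosome 4 in the rest cannot change a median or share of chromosome 15. Other top lists, tolerances and score bounds change the measure itself. Leaving out windows chosen for high scores lowers values of chromosome 15 at least in part by construction. These counts are therefore no gauge of stability. The ratio of peaks to length was 1.18 with only scores of 100 or more, 0.998 with stitched clusters, 0.983 with chromosome 4 in the rest and 0.998 without the windows. The median width was 1750 bp (1900 bp on other chromosomes) with only scores of 100 or more, 1115 bp (1000 bp) with peaks within 500 bp merged and 810 bp without the windows. The median score was 278 (226), 94.5 (85) and 72 under these settings. The share of high scores on chromosome 15 was 15.7% with the 2000 highest, 0.870% with the 500 highest and 3.22% without the windows, and in the windows it was 94.2% with the 2000 highest and 0% with the 500 highest. The share of unit distances was 58.7% at a tolerance of 50 bp. Window medians, score evenness and cluster counts stayed within their bounds under every alternative run. Of these, those with only peaks of 1500 bp or more were chosen after the data were seen. The alternatives for window medians and evenness kept nearly all window peaks, so little change could follow. Merging peaks within 500 bp could not change the number of clusters stitched at 10 kb. No paired analysis was possible because the list pools its replicates, so none could be left out either.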
